A study of Mus musculus with 6 samples.

Results

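Immediate early genes are switched on within minutes of a stimulus, without new protein synthesis, and their mRNAs decay quickly once the stimulus ends. Growth factor, stress and calcium signals reach them through MAP kinases and protein kinase A, which act on factors already bound at the promoters, such as SRF with its ELK partners and CREB. Several of the products are transcription factors, among them the FOS and JUN subunits that pair as AP-1, and others feed back on the kinases. In liver they are known for their rise after partial hepatectomy and during handling or ischemia of the tissue.

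The 10 genes described here are Fos, Fosb, Fosl1, Jun, Junb, Egr1, Egr2, Ier2, Nr4a1 and Dusp1, taken by gene symbol from the 55536 genes of the deposited table. Each of the 10 passed the low-count filter, as did 15374 genes in all. The tumors grew from HCA-1, an established murine hepatocellular carcinoma (HCC) line of which 1000000 cells were injected under the liver capsule of male C3H mice (C3H/HeNCrNarl in the study's methods) aged 6 to 8 weeks. The control tumors (libraries 5, 6 and 7) are labelled untreated, and the treated mice (libraries 1, 2 and 5) received GOx-DOX-LGP, nanoparticles carrying glucose oxidase (GOx) and doxorubicin (DOX), intravenously on days 18, 19 and 20. The labels place the RNA profiling after 3 h of circulation on day 17, which precedes the first dose, whereas the study's methods for quantitative PCR describe tumor RNA taken the day after the last dose, so the time between dosing and harvest of these libraries is uncertain. No empty carrier and no single agent is among these libraries, and both groups carry tumors of the same cell line.

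Library totals lay between 15529940 and 18401178 counts. Levels are given as CPM, counts relative to the total of the library after TMM scaling, which corrects for differences in RNA composition, and intervals of single libraries cover counting error only. Controls 6 and 7 stood apart from the other 4 libraries. Their 14 hepatocyte markers summed to 146800 and 235300 CPM, against 786 CPM in control 5 and between 1695 and 4124 CPM under GOx-DOX-LGP. Albumin (Alb) alone measured 73800 and 128200 CPM in controls 6 and 7 and between 353 and 1893 CPM elsewhere. Transcripts of the mitochondrial genome took 7.02% (95% Wilson interval 7.004 to 7.029) and 8.98% (8.964 to 8.992) of counts in controls 6 and 7, and between 2.21% and 3.23% in the other libraries. Summed erythroid markers (all 5, of which 4 passed the filter) moved the same way, at 406 and 425 CPM against 13.2 to 42.0 CPM. In contrast, 9 proliferation markers summed to 302 and 44.9 CPM in controls 6 and 7 and to between 757 and 1082 CPM in the others. In bulk tissue, fewer cells of a type and less RNA per cell cannot be told apart.

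No immediate early gene differed between the groups beyond the spread of the libraries. With edgeR's quasi-likelihood test over all genes, 0 of 10 had an adjusted p under 0.05, as did 0% of all genes, and 0 had an unadjusted p under 0.05, where 17.5% of all genes did so in either direction and 2.87% on the side of GOx-DOX-LGP. DESeq2 called 0 of the 9 members to which it gave an adjusted p (10.5% of all genes were called, 0.684% as higher), and gave none for Fosb. The log2 fold change was positive for 8 members, beside 51.1% of all genes, with a median of 0.36 beside 0.02 for all genes. Control 5 was the highest library for 7 of 10 members, beside 19.4% of all genes. Control 7 was the lowest for 9 of 10, beside 35.6% of all genes. The groups were free of overlap for 1 member, Fos, which was higher in GOx-DOX-LGP tumors as were 8.87% of all genes, and for 0 members in the other direction, beside 8.31%.

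**Figure D1:**
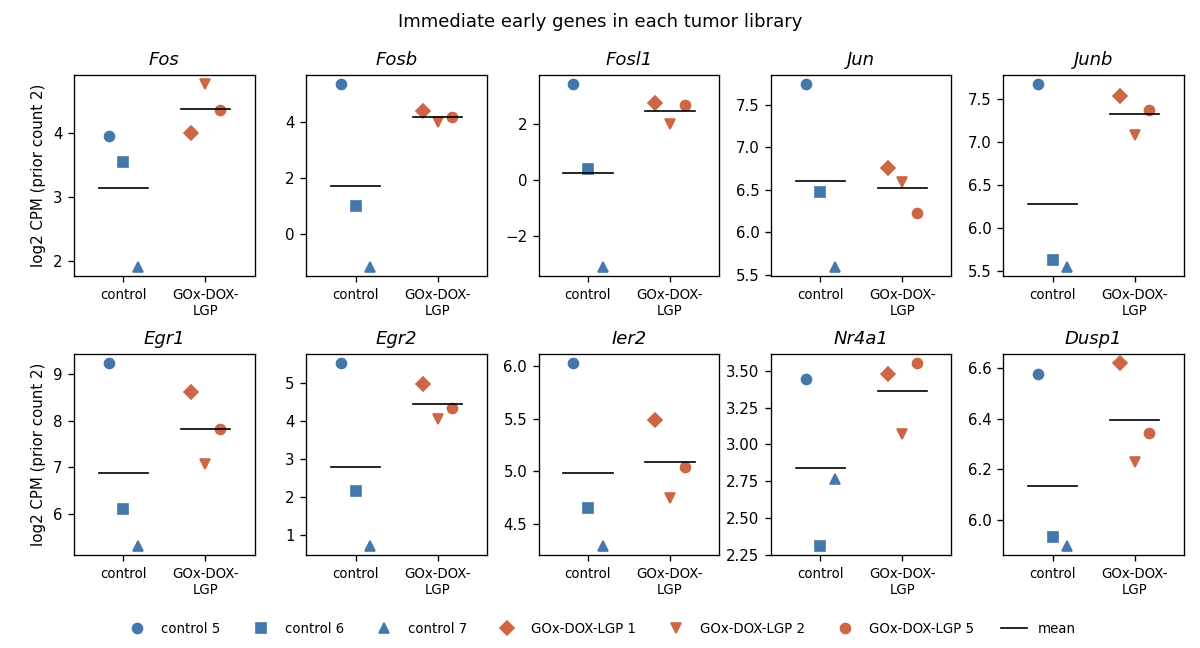
Log2 CPM (prior count of 2) of each of the 10 genes in the 3 control and 3 GOx-DOX-LGP libraries, 1 point a library, with the group mean as a line. The scale differs between panels. Control 5 lies above controls 6 and 7 in every panel, and the GOx-DOX-LGP points lie above all control points for Fos only.

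Fos (ENSMUSG00000021250; GRCm38 chromosome 12, 85473890 to 85477273) encodes the founding FOS subunit, which binds DNA only as a partner of a JUN protein. It measured 15.5, 11.6 and 3.66 CPM for controls 5, 6 and 7, and 15.9, 27.1 and 20.5 CPM for GOx-DOX-LGP tumors 1, 2 and 5. All treated tumors lay above all controls, though tumor 1 and control 5 were almost level. The log2 fold change was 1.04 (SE 0.54, 95% interval -0.26 to 2.34; adjusted p = 0.352, edgeR).

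Fosb (ENSMUSG00000003545; chromosome 7, 19302696 to 19310051) encodes a close relative of FOS, and its short splice form, which gene counts do not separate, accumulates under repeated stimulation. It measured 40.9, 1.87 and 0.323 CPM across the controls and 21.01, 16.0 and 17.9 CPM under GOx-DOX-LGP. These rest on 933, 22 and 3 counts in the controls, so the value of control 7 equals the level of 3 counts. Control 5 was 21.9 times control 6, while the highest treated tumor was only 1.31 times the lowest. Fosl1 (ENSMUSG00000024912; chromosome 19, 5447547 to 5455946), the gene of the FOS-related subunit FRA1, measured 10.5 and 1.19 CPM for controls 5 and 6 and 6.57, 3.87 and 6.19 CPM in the treated tumors. It had 0 counts in control 7, which allows a level of up to 0.323 CPM (3 counts). Neither gene separated the groups, with log2 fold changes of 0.33 (SE 1.41, 95% interval -3.08 to 3.75) and 0.47 (SE 1.33, 95% interval -2.75 to 3.69).

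Jun (ENSMUSG00000052684; chromosome 4, 95049034 to 95052222), a gene with 1 exon, encodes the JUN subunit that drives much of AP-1 activity and is a known target of the stress kinase JNK. It measured 215, 88.9 and 48.1 CPM across the controls and 107.8, 96.5 and 75.0 CPM under GOx-DOX-LGP. The treated tumors lay between control 5 and control 7, for a log2 fold change of -0.33 (SE 0.55, 95% interval -1.67 to 1.00; adjusted p = 0.728, edgeR). Junb (ENSMUSG00000052837; chromosome 8, 84974484 to 84978718) encodes a JUN subunit that is a weaker activator and can oppose JUN. It measured 204, 49.4 and 46.7 CPM across the controls and 185, 135 and 165 CPM in the treated tumors, so that control 5 alone kept the groups from separating. Its log2 fold change was 0.69 (SE 0.63, 95% interval -0.83 to 2.21; adjusted p = 0.546, edgeR).

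Egr1 (ENSMUSG00000038418; chromosome 18, 34859823 to 34864984) encodes a zinc finger factor that answers to serum, growth factors and reactive oxygen. In control 5 it had the most counts of the members, 13751, and it measured 603, 68.8 and 39.3 CPM in the controls. The GOx-DOX-LGP tumors gave 392, 134 and 225 CPM, the widest spread among treated tumors of any member, with tumor 1 at 2.92 times tumor 2. The log2 fold change was 0.08 (SE 1.06, 95% interval -2.50 to 2.65; adjusted p = 0.970, edgeR), an interval too wide to bound the difference closely. Egr2 (ENSMUSG00000037868; chromosome 10, 67535475 to 67542188), a paralog known in myelin and in T cell tolerance, measured 45.5, 4.33 and 1.51 CPM across the controls and 31.1, 16.5 and 20.1 CPM in the treated tumors. Both genes had the same order of libraries, with control 5 first, then tumors 1, 5 and 2, then controls 6 and 7.

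Nr4a1 (ENSMUSG00000023034; chromosome 15, 101254269 to 101274795) encodes the orphan nuclear receptor NUR77, a marker of recent antigen receptor signaling in T cells. It measured 10.8, 4.83 and 6.67 CPM across the controls and 11.0, 8.28 and 11.6 CPM under GOx-DOX-LGP, and was the only member lowest in control 6. Control 5 lay within the range of the treated tumors. Ier2 (ENSMUSG00000053560; chromosome 8, 84661331 to 84662852), a gene with 1 exon that encodes a small nuclear protein, measured 65.1, 24.9 and 19.4 CPM across the controls and 44.8, 26.7 and 32.8 CPM in the treated tumors. The log2 fold changes were 0.47 for Nr4a1 (SE 0.37, adjusted p = 0.501, edgeR) and -0.07 for Ier2 (SE 0.50, adjusted p = 0.939, edgeR).

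Dusp1 (ENSMUSG00000024190; chromosome 17, 26505590 to 26562128) encodes the phosphatase MKP-1, which switches off p38, JNK and ERK and so limits the response that induces it. On the log2 scale it varied least of the members among controls, at 95.4, 61.0 and 59.4 CPM, and it measured 98.3, 74.9 and 81.1 CPM under GOx-DOX-LGP. Its SD among controls was 0.38 on the log2 scale, wider than that of 34.9% of all genes, whereas that of Fosb was 3.34, wider than that of 96.6%. The log2 fold change of Dusp1 was 0.24 (SE 0.27, 95% interval -0.41 to 0.88; adjusted p = 0.616, edgeR). The median SD over the 10 members was 1.14 in controls and 0.32 in treated tumors, beside 0.56 and 0.24 over all genes.

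Compared per length (CPM per kilobase of merged exons in GENCODE M21), the order of the treated medians was Junb at 71.7, Egr1 at 50.2, Jun at 30.3, Dusp1 at 24.5 and Ier2 at 21.6. These were followed by Fos at 8.74, Egr2 at 5.93, Nr4a1 at 3.14, Fosl1 at 3.04 and Fosb at 2.86 CPM per kilobase. Among treated tumors, neighbours in this order overlapped in range except Ier2 and Fos, and Egr2 and Nr4a1. In control 5 the order began with Egr1 at 134.5, Junb at 88.7 and Jun at 67.4, and in control 6 with Jun at 27.9, Junb at 21.4 and Dusp1 at 18.4 CPM per kilobase. The merged exons of Fosb span 6243 bases, more than any other member, so a level per length of Fosb is sensitive to which transcripts are made. The counts of 4 members are uncertain, because an exon of another gene lies on the opposite strand and the use of strand in counting is not given in the sources used here. These are Fosl1 with Ccdc85b (1163 shared bases), Jun with Junos (232), Junb with Prdx2 (173) and Dusp1 with Ergic1 (11).

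The groups were compared again with either set of controls left out, because controls 6 and 7 differed from control 5 in the markers above. Without control 5, edgeR called 7 of 10 members higher in GOx-DOX-LGP tumors, beside 22.2% of all genes, and the groups were free of overlap for 9, all higher, beside 36.8%. The members called were Fos, Fosb, Fosl1, Junb, Egr1, Egr2 and Nr4a1. Both controls of this fit had high hepatocyte markers and the treated tumors did not, so treatment and tissue content cannot be told apart in it. The differences were led by Fosb with a log2 fold change of 4.02 (SE 0.56, adjusted p = 0.00126, edgeR), Fosl1 with 3.15, Egr2 with 2.95, Egr1 with 2.24 and Junb with 1.78. Over all settings tried, the adjusted p of Fosb ranged from 0.00126 to 0.986. For Jun (0.47, SE 0.30), Ier2 (0.68, SE 0.27) and Dusp1 (0.52, SE 0.19) the adjusted p from edgeR was 0.223, 0.0738 and 0.0524.

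Without controls 6 and 7, the log2 fold change was negative for 9 of 10 members. Control 5 was above every GOx-DOX-LGP tumor for 7 of them, beside 26.7% of all genes, and below every one for Fos, beside 27.5%. The difference was -1.25 for Egr1 (SE 0.50), -1.19 for Jun (SE 0.24), -1.15 for Fosb (SE 0.24) and -0.89 for Ier2 (SE 0.30), and 0.47 for Fos (SE 0.34). With 1 control library, which is assumed to vary like the treated tumors, 0 members passed the adjusted threshold of edgeR and 5 had an unadjusted p under 0.05, beside 5.47% of all genes. Fos was thus the only member whose log2 fold change was positive in all of the library sets compared here.

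**Figure D2:**
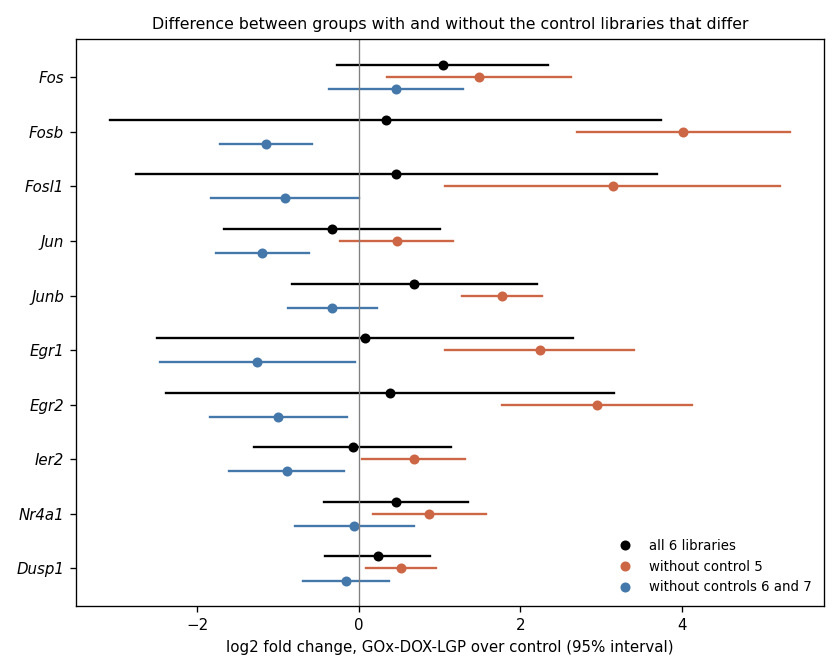
Log2 fold change of each gene, GOx-DOX-LGP over control, with its 95% interval from edgeR, for all 6 libraries (black), without control 5 (orange) and without controls 6 and 7 (blue). With all libraries every interval includes 0, without control 5 the points are all positive, and without controls 6 and 7 Fos alone is positive.

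Across the 6 libraries, the mean log2 CPM of the 10 genes was 5.90, 3.82 and 2.77 in controls 5, 6 and 7 and 5.46, 4.96 and 5.19 for GOx-DOX-LGP tumors 1, 2 and 5. The mean of the hepatocyte markers was 4.85, 12.4 and 13.0 in the controls and 7.29, 6.00 and 6.38 in the treated tumors. The libraries fell into separate clusters, a pair with high hepatocyte markers and low immediate early genes and 4 with the reverse. Among these 4, control 5 had the lowest markers and the highest member mean, and tumor 1 the highest markers and the next highest member mean. With the hepatocyte mean as a covariate, 7 members had a positive and 3 a negative log2 fold change, where 50.6% of all genes were positive. The median was 0.04, beside 0.006 over all genes. In this fit 0 members passed the adjusted threshold of edgeR, as did 0 of 15374 genes. There, 1 member had an unadjusted p under 0.05, as did 1035 of the 15374 genes. The part of these markers in the level of the members was not tested beyond this fit.

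**Figure D3:**
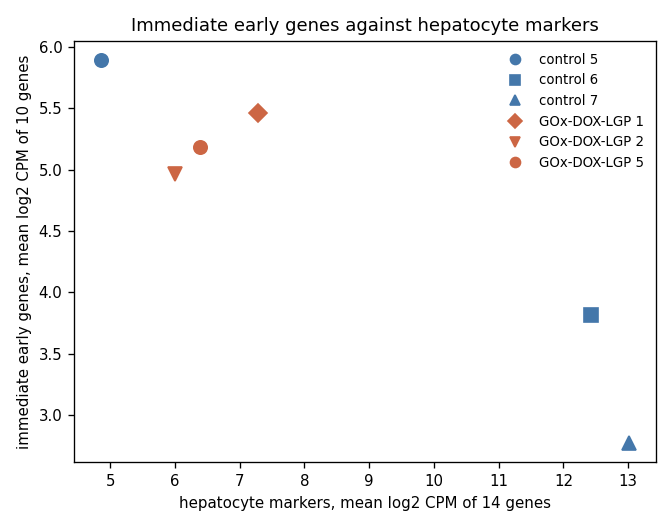
Mean log2 CPM of the 10 immediate early genes against the mean log2 CPM of 14 hepatocyte markers, 1 point a library. Controls 6 and 7 lie at the lower right, at 12.4 and 13.0 on the horizontal axis, and control 5 lies with the GOx-DOX-LGP tumors at the upper left.

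Ratios of raw counts within a library do not depend on scaling. Fosb to Fos was 2.64 (95% exact interval 2.34 to 3.00) in control 5, 0.161 (0.0974 to 0.253) in control 6 and 0.0882 (0.0173 to 0.281) in control 7. For GOx-DOX-LGP tumors 1, 2 and 5 it was 1.32, 0.590 and 0.868, between control 5 and the other controls. Junb to Jun was 0.950, 0.555 and 0.971 in the controls and 1.71, 1.397 and 2.20 in the treated tumors, all above every control. On the log2 scale this ratio was higher by 1.12 in treated tumors (control SD 0.46, treated SD 0.33, n = 3 each), with p = 0.1 by an exact permutation test on both sides, the lowest value that 3 against 3 can give. Jun to Fos was 13.9, 7.65 and 13.2 in the controls and 6.79, 3.56 and 3.65 in the treated tumors, where the counting intervals of control 6 (6.40 to 9.21) and tumor 1 (6.04 to 7.66) overlapped. These ratios were chosen after their values were seen. Of the 45 pairs of members, 4 (8.89%) had ratios without overlap between groups, beside 16.5% of all pairs of genes, and the smallest exact permutation p adjusted over the 45 pairs was 0.643. The others were Junb to Ier2 and Egr2 to Egr1, both higher in GOx-DOX-LGP tumors. The share of separated pairs was thus below that of all gene pairs.

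**Figure D4:**
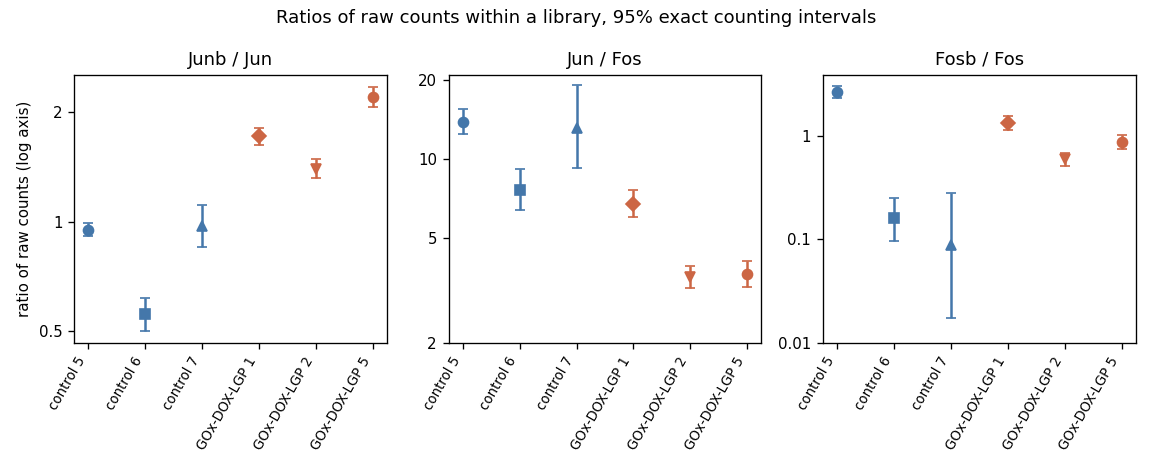
Ratios of raw counts of Junb to Jun, Jun to Fos and Fosb to Fos in each library on log axes, with 95% exact counting intervals. Junb to Jun is at 1.397 or more in every GOx-DOX-LGP tumor and below 1 in every control, and Fosb to Fos is highest in control 5.

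The members were set beside the other genes of the response. Among 12 other AP-1 subunits, edgeR and DESeq2 called 0, beside 0% and 10.5% of all genes. Of these, 0 had an unadjusted p under 0.05, beside 17.5% of all genes. Log2 fold changes were positive for 9, beside 51.1% of all genes, with a median of 0.32. The largest were those of Fosl2 (1.10, SE 0.71), Batf2 (1.04, SE 0.75) and Jdp2 (0.98, SE 0.42), a repressor of AP-1. The groups were free of overlap for 1 of the 12, Jdp2, higher in GOx-DOX-LGP tumors, beside 8.87% of all genes. Another list held Egr3, Egr4, Nr4a2 and Nr4a3, with Nab1 and Nab2, the genes of EGR corepressors. Of these 6 genes, 5 were kept (not Egr4). Among them edgeR and DESeq2 called 0 and 0 had an unadjusted p under 0.05, beside the same shares. Log2 fold changes were positive for 4, beside 51.1% of all genes. The negative one was that of Nab1 (-0.55, SE 0.27), the only gene of this list whose groups did not overlap. It was lower in GOx-DOX-LGP tumors, as were 8.31% of all genes without overlap. Nr4a2 was at 22.7, 4.24 and 4.20 CPM across the controls and 24.2, 21.7 and 26.6 CPM in the treated tumors, and Egr3 and Nr4a3 had log2 fold changes of 0.84 (SE 1.01) and 0.75 (SE 0.76).

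Of 28 further early response genes, 27 were kept and edgeR called 0, beside 0% of all genes. DESeq2 called 1 higher (Ccn2) and 1 lower (Zfp36), beside 10.5% of all genes in either direction. An unadjusted p under 0.05 was seen for 3, beside 17.5% of all genes. Log2 fold changes were positive for 21 and negative for 6, where 51.1% of all genes were positive, with a median of 0.39. Ier3 (1.49, SE 1.03) and Klf4 (1.45, SE 0.81) were on the positive side. Zfp36, which encodes tristetraprolin, a protein that speeds the decay of AU-rich mRNAs, went the other way at 65.3, 173 and 203 CPM across the controls and 44.2, 55.5 and 58.0 CPM in the treated tumors. Its log2 fold change was -1.49 (SE 0.44), which edgeR did not call (adjusted p = 0.247) and DESeq2 did (adjusted p = 0.0406). Ccn2, the gene of connective tissue growth factor, measured 30.1, 18.9 and 12.9 CPM across the controls and 55.9, 68.7 and 37.2 CPM in the treated tumors (log2 fold change 1.38, SE 0.39; adjusted p = 0.247 with edgeR, 0.0337 with DESeq2). Without control 5, edgeR called 17 of this list higher, beside 22.2% of all genes, and 2 lower, beside 25.5%. Other lists moved as well in that fit. Called higher were 8 of 9 proliferation markers and 11 of 15 AP-1 and EGR1 targets, with 0 lower in either list. Of 14 MAP kinase feedback inhibitors, 10 were called higher and 2 lower, and 14 of 14 hepatocyte markers were called lower.

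Of 14 feedback inhibitors of MAP kinases, edgeR called 0, beside 0% of all genes, and 3 had an unadjusted p under 0.05, beside 17.5%. Values were positive for 11, beside 51.1% of all genes, with a median of 0.52. Dusp2, a phosphatase of immune cells, had a log2 fold change of 1.53 (SE 0.48) at levels under 5 CPM, whereas Errfi1, an inhibitor of the EGF receptor, had -1.55 (SE 0.56) and Dusp16, a JNK phosphatase, -1.19 (SE 0.31). DESeq2 called Dusp16 alone (adjusted p = 0.0309), beside 10.5% of all genes. Of 24 upstream kinases and SRF or CREB factors, edgeR called 0 and DESeq2 1, beside 0% and 10.5% of all genes. With an unadjusted p under 0.05 there were 3, all lower, beside 17.5% of all genes in either direction. Values were positive for 11 and negative for 13, where 51.1% of all genes were positive, with a median of -0.05. Egfr, the EGF receptor gene, which hepatocytes express strongly, measured 97.1, 665 and 1235 CPM across the controls and 75.8, 97.6 and 53.1 CPM in the treated tumors (log2 fold change -3.14, SE 0.90; adjusted p = 0.247 with edgeR, 0.00508 with DESeq2). Elk3 had 0.99 (SE 0.54) and Crem -0.97 (SE 0.45).

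Of 15 known AP-1 and EGR1 target genes, edgeR and DESeq2 called 0, beside 0% and 10.5% of all genes. Among them 1 had an unadjusted p under 0.05, beside 17.5% of all genes, and 13 had a positive value, beside 51.1%. Their median was 1.10, above that of the members. Treated and control ranges were separate for 5, all higher in GOx-DOX-LGP tumors, beside the 8.87% above. Mmp9, a gelatinase, measured 1.404, 1.61 and 1.29 CPM across the controls and 3.46, 15.2 and 2.03 CPM in the treated tumors. Timp1, an inhibitor of such proteases, measured 105.0, 8.06 and 1.94 CPM across the controls and 154, 190.3 and 137 CPM in the treated tumors, and Mmp13 31.9, 3.05 and 2.15 CPM against 54.2, 45.1 and 38.1 CPM. Macrophage markers, summed over 8 genes, lay at 1612, 1272 and 797 CPM across the controls and 1536, 4179 and 2167 CPM in the treated tumors, with the highest value in tumor 2 as for Mmp9, and their part in these levels was not tested.

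Other cell types also differed between the libraries. Summed T cell markers (8 of 8 kept) ranged from 28.6 to 86.7 CPM in controls and from 116 to 175 CPM in GOx-DOX-LGP tumors, and endothelial markers (7 of 7 kept) from 150.3 to 347 and from 101 to 141 CPM. Neutrophil markers (all 7 summed, though Retnlg and Ly6g did not pass the filter) ranged from 8.18 to 22.9 and from 18.1 to 57.5 CPM. Fibroblast markers (7 of 7 kept) ranged from 1412 to 5773 and from 2222 to 6951 CPM. The part of these cells in the level of the immediate early genes was not tested.

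The genes whose pattern was most like the mean of the members, after each member was scaled to unit SD, were Zfp451, Polq, Jag1, Rem2 and Gm47761. Their Pearson's r with that mean was between 0.997 and 0.999 over 6 libraries, with a Spearman's rho of 1, given as a description because the libraries form clusters. Jag1, a Notch ligand, measured 205, 30.1 and 13.99 CPM across the controls and 127, 78.2 and 109 CPM in the treated tumors. Polq, a DNA polymerase of end joining, measured 13.3, 2.12 and 0.969 CPM across the controls and 9.74, 5.63 and 7.60 CPM in the treated tumors. Both show control 5 first and control 7 last.

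The promoters are shown because 7 of the 10 members had their highest level in control 5 and 9 their lowest in control 7. Those of Fos and Dusp1, which were not highest in control 5, stand beside those of Jun, Junb and Egr2, which were. RefSeq windows on GRCm38.p6, from 250 bases before to 50 after a start, were found for 7 of the 10 members, not for Fosl1, Egr1 and Ier2, and only the 250 bases before the start are printed. Windows of Fosb, also highest in control 5, and of Nr4a1, highest in tumor 5, were searched but are not printed. The capitals mark the CArG box, the letters bound by SRF, and TGACG, the core of the CRE bound by CREB, on either strand.

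Fos, chr12:85473640-85473889, plus strand: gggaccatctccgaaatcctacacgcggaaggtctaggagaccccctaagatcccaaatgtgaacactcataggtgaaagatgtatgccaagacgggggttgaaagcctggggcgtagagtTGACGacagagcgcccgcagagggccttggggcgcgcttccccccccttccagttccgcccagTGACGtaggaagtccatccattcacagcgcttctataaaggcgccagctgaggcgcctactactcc
Jun, chr4:95052223-95052472, minus strand: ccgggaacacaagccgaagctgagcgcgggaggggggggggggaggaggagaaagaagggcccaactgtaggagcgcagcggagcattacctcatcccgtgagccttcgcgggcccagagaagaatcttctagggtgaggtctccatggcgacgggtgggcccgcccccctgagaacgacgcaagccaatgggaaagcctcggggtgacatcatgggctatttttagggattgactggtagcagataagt
Junb, chr8:84978749-84978998, minus strand: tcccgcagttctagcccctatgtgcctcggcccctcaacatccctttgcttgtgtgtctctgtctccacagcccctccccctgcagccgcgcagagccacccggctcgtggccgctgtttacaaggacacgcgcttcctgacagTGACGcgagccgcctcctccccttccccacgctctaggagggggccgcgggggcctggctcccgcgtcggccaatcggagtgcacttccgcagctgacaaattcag
Egr2, chr10:67537619-67537868, plus strand: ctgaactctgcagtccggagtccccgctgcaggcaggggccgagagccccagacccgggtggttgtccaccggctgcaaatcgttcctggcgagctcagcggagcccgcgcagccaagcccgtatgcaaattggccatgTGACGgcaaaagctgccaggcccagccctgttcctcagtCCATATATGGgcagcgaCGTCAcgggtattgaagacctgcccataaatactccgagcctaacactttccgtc
Dusp1, chr17:26508473-26508722, minus strand: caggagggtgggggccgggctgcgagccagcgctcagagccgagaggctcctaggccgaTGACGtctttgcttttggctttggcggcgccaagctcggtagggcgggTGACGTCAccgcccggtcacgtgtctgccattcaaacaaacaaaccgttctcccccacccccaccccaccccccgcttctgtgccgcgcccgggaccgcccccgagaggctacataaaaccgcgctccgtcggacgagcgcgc

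A TGACG was found in the windows of 6 of the 7 members, beside 23.0% of all genes with a window, and Jun was the member without it. Fos has 2 such matches and Junb 1. The whole CRE, TGACGTCA, which contains that core, occurred in Dusp1 alone, beside 2.03% of genes, and the CArG box in Egr2 alone, beside 1.81%. The Egr2 window shown is the third of 5 starts in the table, and its CArG box lies 72 to 63 bases before the start. TATAAA was found in Fos and, directly after the start and so outside the printed stretch, in Junb, beside 15.7% of genes, GCGNGGGCG, an EGR site, in Fosb and Nr4a1, beside 6.27%, and the AP-1 site TGANTCA in 0 of 7, beside 8.97%. The shares are of 27025 genes with a window of this length, both strands searched. These are matches of letters in short windows and do not show binding. Sites outside the windows or with other letters were not searched. The part of the matches in the order of the libraries was not tested.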

How the data were processed

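RNA-seq of 3 untreated control tumors and 3 GOx-DOX-LGP tumors was analysed. The authors deposited raw counts of 55536 genes, without pooling. The methods name TopHat and HTSeq, whereas the submitters' processing notes name Trimmomatic 0.38, HISAT2 2.1.0 and featureCounts 2.0.0, and build, annotation and strand are not given in the sources used here. The authors also deposited signal values for 34685 genes, namely those counts over each library's size factor, which served here to pair identifiers with symbols. Libraries were grouped by their labels, which match the column names, and nothing in them says that each library is a separate animal, so p-values measure the spread between these samples.

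Raw counts were filtered with filterByExpr, scaled by TMM and compared by the quasi-likelihood test of edgeR 4.0.16 (R 4.3.3) over all 6 libraries, with Benjamini-Hochberg adjustment over all 15374 genes kept and a threshold of 0.05. Log2 CPM used a prior count of 2. Standard errors are the log2 fold change over the root of F, and intervals are at 95%. Exact permutation tests were two-sided. Scripts were tested on simulated data.

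Positions and exon lengths come from GENCODE M21 (GRCm38). The alternatives were DESeq2 1.42.0, scaling by library totals, by the upper quartile or by DESeq2 size factors, no filter or at least 10 counts in every library, the mean log2 CPM of the hepatocyte markers as a covariate, and leaving out each library. Leaving out controls 6 and 7 together and the ratios were added after values had been seen. The members and gene lists were chosen with earlier results of these data known. The genes named were all members, genes among the 3 largest changes of each other list, Alb, and genes among the 5 most alike in pattern. Ccn2 was named after its DESeq2 call was seen, and Nab1 and Nab2 because they are neither EGR nor NR4A genes. Figures were drawn with matplotlib 3.10.9.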

Additional observations from a re-analysis of the deposited data

How the results depend on the processing

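The result rests most on control 5. Without it, 7745 genes and 7 members were called and 9 members were free of overlap; over the fits that left out 1 library these counts ranged from 0 to 7745, from 0 to 7 and from 1 to 9. DESeq2 called 1739 genes and 0 members. Without controls 6 and 7, 8 members were free of overlap, 7 of them with control 5 higher. In that fit the log2 fold change reversed for Fosb (-1.15), Fosl1 (-0.91), Junb (-0.32), Egr1 (-1.25), Egr2 (-0.99), Nr4a1 (-0.053) and Dusp1 (-0.16). The fits that left out 1 library gave ranges with both signs for Fosb (-0.23 to 4.02), Fosl1 (-0.10 to 3.15), Jun (-0.71 to 0.47), Egr1 (-0.43 to 2.24), Egr2 (-0.15 to 2.95) and Ier2 (-0.38 to 0.68). Egr1 was also reversed with the hepatocyte covariate (-0.30), and Ier2 with library totals (0.22) and the upper quartile (0.052). The median of all genes moved from 0.02 to 0.51 with library totals, where the median of the members was also 0.51, and to 0.19 with the upper quartile. In all, 109 of the values of single members under other settings kept direction and side of the threshold, 7 passed it and 22 reversed; the cause was not tested. Fosb and Fosl1 could not be fitted with at least 10 counts in every library. No paired analysis was possible because the groups share only the replicate number 5. Fosb and Fosl1 rest on at most 22 counts in controls 6 and 7, whose library totals lay within the range of the treated tumors. The TMM factors of controls 6 and 7 were lower, at 0.76 and 0.57 against 1.21 to 1.24 in the treated tumors. A level of 3 counts was therefore 0.254 and 0.323 CPM in these controls and 0.147 to 0.156 CPM in the treated tumors.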

Other observations

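Heat shock genes, which protein damage induces, were also measured. Of 7 such genes, 7 had a positive log2 fold change, beside 51.1% of all genes, with a median of 0.70, and the groups did not overlap for 5, all higher in treated tumors, beside 8.87%. Hspa1a measured 1.84, 0.678 and 0.430 CPM for controls 5, 6 and 7, against 4.45, 4.16 and 4.21 CPM for tumors 1, 2 and 5 under GOx-DOX-LGP. Hspb1 measured 6.98, 8.73 and 7.64 CPM across the controls and 14.7, 29.4 and 22.4 CPM in the treated tumors. Hspa1b measured 8.12, 14.1 and 11.3 CPM across the controls and 25.5, 26.1 and 20.1 CPM in the treated tumors, and the counts of Hspa1a and Hspa1b are uncertain because the genes are near-identical copies. Their adjusted p was 0.247 from edgeR, which called 0 of the 7 (3 at an unadjusted p under 0.05), and 0.0123, 0.00152 and 0.0124 from DESeq2, which called 3. Over all genes, edgeR called 0% and DESeq2 10.5%, and 17.5% had an unadjusted p under 0.05 with edgeR. Control 5 lay below every treated tumor for 5 of the 7, beside 27.5% of all genes, and above every one for 0, beside 26.7%.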
